A study of Mus musculus with 24 samples.

Results

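The MiT/TFE transcription factors and the folliculin-Rag proteins that control where they reside in the cell were followed at the RNA level in NIH 3T3, a mouse fibroblast line that grows indefinitely in culture. The 10 genes were chosen by name and function, with earlier results of these data known. *Tfe3*, *Tfeb*, *Mitf* and *Tfec* encode the 4 factors of the family, and *Flcn* encodes folliculin. *Fnip1* and *Fnip2* encode its binding partners, and *Rraga*, *Rragc* and *Rragd* encode GTPases of the Rag family. The genes chosen are 10 of 39017 gene identifiers in the count files. The cells carried an empty vector (EV), full-length TFE3, the fusion protein YAP-TFE3, YAP5SA, TAZ4SA, the fusion protein TAZ-CAMTA1 or CAMTA1, with 3 libraries for each of the 8 groups, 24 in all. YAP-TFE3 joins the N terminus of YAP, which binds TEAD factors, to the C terminus of TFE3, which holds its transactivating, basic helix-loop-helix and leucine zipper domains, and TAZ-CAMTA1 joins TAZ and CAMTA1 in an analogous way. In YAP5SA and TAZ4SA, serines that LATS kinases phosphorylate were replaced by alanine, which makes both proteins hyperactive. EV, TFE3, YAP-TFE3, YAP5SA, TAZ4SA and TAZ-CAMTA1 cells had been confluent for 48 h, whereas CAMTA1 cells and a second empty vector group (EVsub) were sub-confluent. All cells were pooled stable lines made with retroviral vectors and selected with G418, and the triplicates came from separate transductions.

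MiT/TFE factors are basic helix-loop-helix leucine zipper proteins that bind E-box DNA as dimers and activate genes of lysosomes and autophagy. On the lysosome, the Rag GTPases, dimers of RagA or RagB with RagC or RagD, recruit both mTORC1 and the MiT/TFE factors, which mTORC1 then phosphorylates and keeps in the cytoplasm. Folliculin, together with a folliculin-interacting protein, stimulates GTP hydrolysis by RagC and RagD, the state in which the factors are recruited. Several of these regulators, RagD above all, are themselves known targets of MiT/TFE factors, so that the pathway feeds back on itself. MITF is best known from melanocytes and osteoclasts, and TFEC from macrophages.

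RefSeq promoters, covering 250 bases before to 50 bases after each annotated start on GRCm38.p6 (mm10), were held for all 10 members, 15 promoters in total. The palindromic E-box CACGTG, the same on both strands, was in the promoters of *Fnip1* and *Rragc* only, 2 of the 15, and in 7.17% of all 32544 promoters of that length. In both genes it was extended to TCACGTG on 1 strand, a sequence found in 3.79% of all promoters, and the longest run common to the windows printed here was the 9-base CACGTGATA. These windows are shown because both genes were among those higher in TFE3 cells, with the E-box in capitals. The first lies at chr11:54438077-54438136 on the plus strand, with the E-box 75 to 70 bases before the start of *Fnip1*. The second lies at chr4:123917294-123917353 on the plus strand, with the E-box 112 to 107 bases before the start of *Rragc*.
Fnip1: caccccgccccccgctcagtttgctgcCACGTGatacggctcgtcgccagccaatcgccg
Rragc: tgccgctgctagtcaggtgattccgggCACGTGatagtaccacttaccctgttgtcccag

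Neither TCATGTG, in 3.79% of all promoters on either strand, nor the shorter CATGTG that it contains, in 14.2%, was in any of the 15 promoters. The TEAD core GGAATG, searched on both strands, was in 1 of the 15, that of *Tfec*, and in 14.6% of all promoters. That window is printed because *Tfec* was the member with the largest difference between YAP-TFE3 and EV cells. It lies at chr6:16898523-16898582 on the minus strand, with the core in capitals 114 to 109 bases before the start. The 250 bases before the start of *Rragd*, at chr4:32982748-32982997 on the plus strand, are given because *Rragd* was the most responsive member in TFE3 cells, and they held none of these motifs. The matches describe the windows alone. Binding of the factors was not examined here.
Tfec: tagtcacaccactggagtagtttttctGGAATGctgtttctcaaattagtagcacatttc
Rragd: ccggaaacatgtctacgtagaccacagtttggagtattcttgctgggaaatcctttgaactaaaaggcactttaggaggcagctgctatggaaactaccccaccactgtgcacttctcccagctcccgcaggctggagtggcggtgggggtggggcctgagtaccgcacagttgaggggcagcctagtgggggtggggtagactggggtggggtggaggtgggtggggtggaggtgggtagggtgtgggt

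The libraries held 16471181 to 30132586 counts each (median 22298975). Levels are given as CPM, the reads of a gene scaled to a common library size after TMM normalization. Differences are log2 fold changes from the quasi-likelihood test of edgeR, with p-values adjusted by Benjamini-Hochberg over the 14361 genes whose mean count reached 5. A gene is said to be higher, lower, raised or reduced where the adjusted p was under 0.05. All 10 members passed the filter, but *Tfec*, with a mean of 6.83 counts, passed only through YAP-TFE3 cells. Of its 164 reads, 88 were in YAP-TFE3 libraries, and the other 21 libraries had a mean of 3.62. *Tfec* is therefore left out of the counts of members below wherever it was called, and its values are given apart. Fibroblast markers were abundant in every library, summing to 18973 to 53327 CPM over 8 genes, while 4 epithelial markers summed to at most 1.05 CPM. In these bulk samples fewer expressing cells and less RNA per cell cannot be told apart.

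The introduced constructs did not show as a rise in mouse *Tfe3* reads. *Tfe3* measured 74.1, 74.4 and 68.1 CPM in the TFE3 libraries, against 84.6, 93.2 and 89.2 CPM in EV. All 3 TFE3 libraries were below all 3 EV libraries, with a log2 fold change of -0.30 (SE 0.14, adjusted p = 0.308 by edgeR). In YAP-TFE3 cells it measured 75.7, 80.0 and 83.6 CPM (log2 fold change -0.16, adjusted p = 0.510 by edgeR). The species of the introduced coding sequences is not given in the sources used here, so these values do not check the labels. With only EV and TFE3 in the fit, *Tfe3* passed as lower in TFE3 cells (-0.29, edgeR adjusted p = 0.0279).

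Levels per length differed widely among the members in EV cells. On the scale of CPM per kilobase of exon (RPKM), *Rragc* stood at 89.4 and *Rraga* at 82.1, followed by *Fnip2* at 22.7, *Flcn* at 22.4 and *Fnip1* at 19.4. Among the factors, *Tfe3* stood at 9.61, *Mitf* at 8.38 and *Tfeb* at 1.05 RPKM, and *Tfec* was barely detected, with 2, 2 and 0 reads in the EV libraries. *Rragd* stood at 1.28 RPKM, so that it made up 1.41% ± 0.283 (SD, n = 3) of the summed RPKM of *Rragc* and *Rragd*.

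TFE3 cells had higher levels of 4 of the 10 members, *Rragd*, *Fnip2*, *Rragc* and *Fnip1*, and lower levels of none. In this comparison 2.36% of all tested genes were higher and 1.02% were lower. At an unadjusted p under 0.05, 5 members were higher and 1 was lower by edgeR, and DESeq2 also called 4 higher and none lower. These genes encode the RagC and RagD subunits and both folliculin-interacting proteins. The factors themselves, *Flcn* and *Rraga*, did not pass the test.

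*Rragd*, which encodes the RagD GTPase, changed the most. It measured 7.30, 5.06 and 7.43 CPM in EV and 39.0, 46.0 and 49.8 CPM in TFE3. The lowest TFE3 library was well above the highest EV library, and the group means differed 6.81-fold. Its log2 fold change was 2.77 (SE 0.22, adjusted p = 1.99e-07 by edgeR). The share of *Rragd* in the summed RPKM of *Rragc* and *Rragd* was 5.91% ± 0.775 (SD, n = 3) in TFE3 cells, with no overlap with EV.

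*Fnip2* measured 195, 192 and 184 CPM in EV and 439, 392 and 395 CPM in TFE3. The groups were far apart relative to their spread, with a log2 fold change of 1.10 (SE 0.15, adjusted p = 9.81e-05 by edgeR). *Fnip1* measured 134, 141 and 139 CPM in EV and 196, 204 and 221 CPM in TFE3. Its groups did not overlap either, and its log2 fold change was 0.58 (SE 0.14, adjusted p = 0.0207 by edgeR). The call on *Fnip1* was lost in 5 of 6 fits that left out 1 library, with the adjusted p reaching 0.109 (edgeR) and only the fit without TFE3 replicate 1 keeping it. It was also lost with scaling to the total count (0.0532 by edgeR). *Fnip2* took 53.9% ± 1.22 of the summed RPKM of *Fnip1* and *Fnip2* in EV and 62.7% ± 2.69 in TFE3 (SD, n = 3 each).

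*Rragc*, the RagC gene, measured 292, 299 and 306 CPM in EV and 476, 428 and 487 CPM in TFE3. The lowest TFE3 library exceeded the highest EV library, with a log2 fold change of 0.63 (SE 0.14, adjusted p = 0.0123 by edgeR). Without EV replicate 1 or without TFE3 replicate 3 it no longer passed, with an adjusted p of up to 0.0666 (edgeR). Its annotated exons share 264 bases with 4930535I16Rik on the other strand, which had 0 or 1 count in every library. *Flcn* measured 100.4, 88.4 and 102 CPM in EV and 134, 124 and 118 CPM in TFE3. All TFE3 libraries lay above all EV libraries, but the log2 fold change of 0.37 had an adjusted p of 0.316 (edgeR), and the gene passed only with those 2 groups alone in the fit (0.39, edgeR adjusted p = 0.0140). *Rraga*, encoding the RagA partner subunit, stayed within 119 to 128 CPM in TFE3 against 128 to 140.2 CPM in EV, with a log2 fold change of -0.10 and a 95% interval from -0.34 to 0.13.

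**Figure D1:**
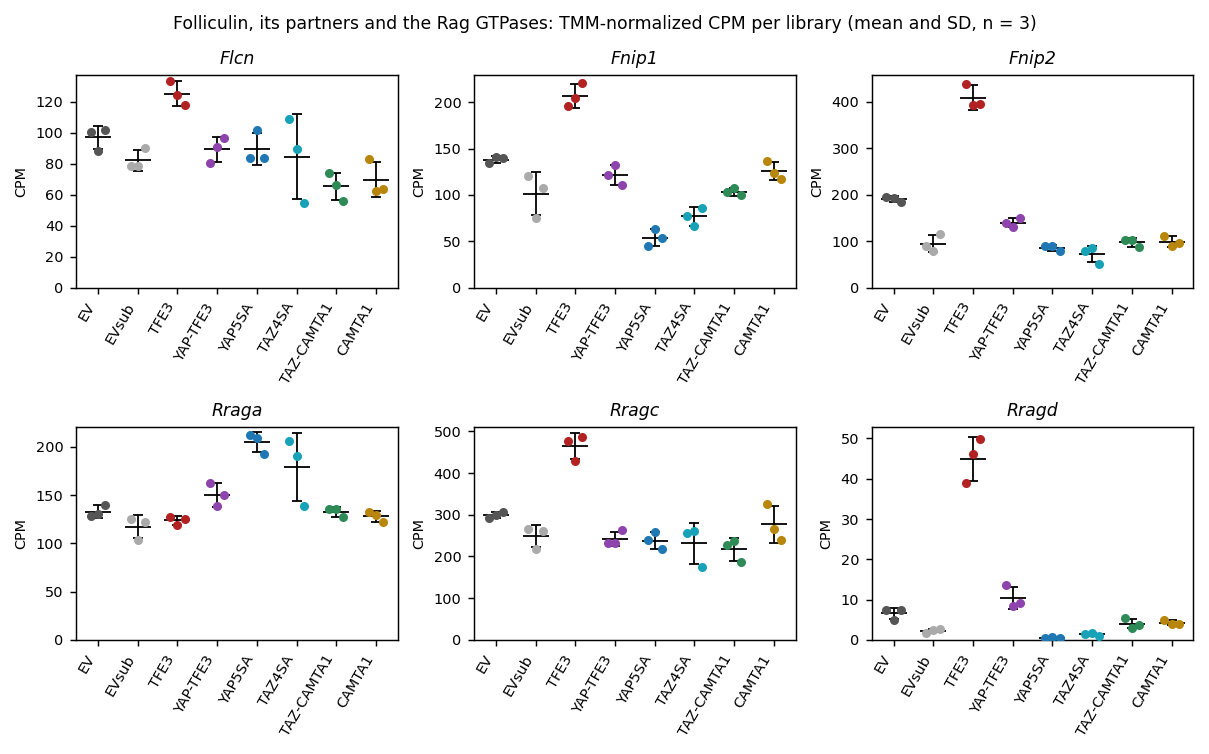
Level of each folliculin and Rag gene in CPM (y axis, from 0) for the 3 libraries (points) of each of the 8 groups (x axis), with the mean and SD as a bar. The TFE3 libraries sit above all others for Fnip2 (392 to 439 CPM) and Rragd (39.0 to 49.8 CPM), and the YAP5SA libraries are the lowest for Rragd (0.411 to 0.638 CPM).

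YAP-TFE3 cells, which carry the C terminus of TFE3, had higher *Rragd* and lower *Fnip2* than EV cells, 1 higher and 1 lower of the 9 members other than *Tfec*. Over all genes tested, 10.6% were higher and 4.74% were lower. *Rragd* measured 13.5, 8.41 and 9.21 CPM, each above the highest EV library at 7.43 CPM. This was a log2 fold change of 0.65 (SE 0.22, adjusted p = 0.0456 by edgeR). This call was lost in 4 of 6 fits without 1 library (without each EV library and without YAP-TFE3 replicate 1, adjusted p up to 0.382 by edgeR), with only those 2 groups in the fit (edgeR adjusted p = 0.0855) and with the size factors of DESeq2 (edgeR adjusted p = 0.0509).

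*Fnip2* measured 140, 130.2 and 150 CPM in YAP-TFE3 cells, all below the lowest EV library at 184 CPM. The log2 fold change was -0.44 (SE 0.15, adjusted p = 0.0454 by edgeR), and the call was lost in each of the 6 fits without 1 library (adjusted p from 0.0526 to 0.147 by edgeR). *Rragc* measured 233, 232 and 262 CPM, also below all EV libraries, with a log2 fold change of -0.30 that did not pass (adjusted p = 0.164 by edgeR) except with those 2 groups alone in the fit (edgeR adjusted p = 0.0422). *Fnip1* (110.3 to 132 CPM), *Flcn* (80.6 to 96.6 CPM), *Rraga* (138 to 163 CPM) and *Tfeb* (7.13 to 7.67 CPM) did not pass.

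*Tfec* was the member with the largest difference in YAP-TFE3 cells, at a low level. The YAP-TFE3 libraries had 36, 26 and 26 *Tfec* reads (1.81, 0.871 and 1.10 CPM), against 2, 2 and 0 reads in EV and 0, 0 and 4 reads in TFE3. Every YAP-TFE3 library was above every library of the other groups. Over the summed reads, 88 against 4, the level in YAP-TFE3 cells was 20.2 times that in EV, with an exact 95% counting interval from 7.60 to 75.6. The same test with TFE3 as the other group gave 22.4 times, from 8.45 to 84.1. These intervals hold counting error alone, since the reads carried no molecular identifiers and need not be independent. With no filter on low counts, over 24737 genes, the difference from EV had an adjusted p of 1.27e-06 and that from TFE3 one of 3.10e-07 (edgeR). TAZ-CAMTA1 cells had 14, 9 and 4 reads (27 in all, 6.37 times EV, interval from 2.22 to 25.1), with an edgeR adjusted p of 0.0167 with no filter. With the filter that call was lost in 4 of 6 fits without 1 library (EV replicates 1 and 3, TAZ-CAMTA1 replicates 1 and 2, adjusted p up to 0.135 by edgeR). In the TAZ-CAMTA1 libraries the level spanned 0.160 to 0.566 CPM, below each YAP-TFE3 library. YAP5SA cells had 5, 7 and 2 reads (14 in all, 4.23 times EV, interval from 1.33 to 17.6), with an edgeR adjusted p of 0.0619 with no filter. With the filter it did not pass either (edgeR adjusted p = 0.0639), except without YAP5SA replicate 3 (0.0485).

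**Figure D2:**
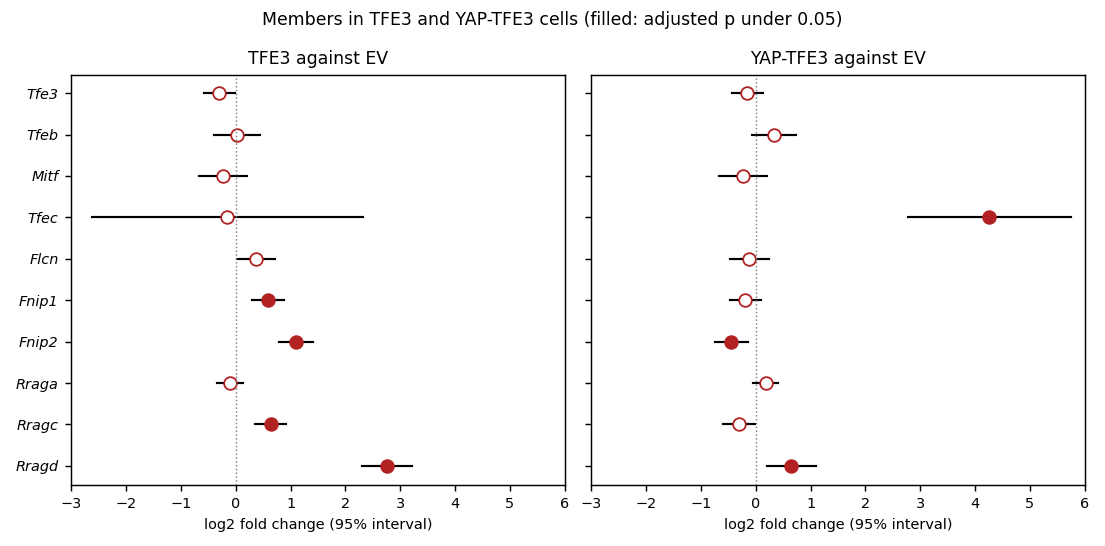
The log2 fold change of each member (x axis, with its 95% interval as a line) in TFE3 cells (left) and YAP-TFE3 cells (right) against EV, filled where the adjusted p was under 0.05. Rragd stands at 2.77 in TFE3 and at 0.65 in YAP-TFE3 cells, Fnip2 is on opposite sides of 0 (1.10 and -0.44), and Tfec, which passed the filter only through YAP-TFE3 cells, stands there at 4.26 against EV libraries with at most 2 reads.

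Set directly against TFE3 cells, YAP-TFE3 cells had lower *Rragd*, *Fnip2*, *Rragc*, *Fnip1* and *Flcn*, 5 of the 9 members other than *Tfec*. The shares over all genes were 14.3% higher and 8.62% lower. *Rragd* had a log2 fold change of -2.12 (SE 0.21, adjusted p = 2.26e-07 by edgeR), and the libraries of 8.41 to 13.5 CPM were all far below the 39.0 CPM of the lowest TFE3 library. For *Fnip2* it was -1.55 (SE 0.15, adjusted p = 1.55e-07 by edgeR), for *Rragc* -0.94 (adjusted p = 3.34e-05) and for *Fnip1* -0.77 (adjusted p = 0.000251). *Flcn* was lower by a log2 fold change of -0.49 (adjusted p = 0.0409 by edgeR), but this call was lost in each of the 6 fits without 1 library (adjusted p from 0.0503 to 0.127). *Mitf* had a log2 fold change of 0.00 between these groups, with a 95% interval from -0.43 to 0.43, and *Tfe3* one of 0.14.

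The melanocyte and osteoclast factor gene *Mitf* showed the widest range of any factor detected in every library. It measured 50.5, 55.1 and 50.1 CPM in EV, 42.4, 43.8 and 46.2 CPM in TFE3, and 40.4, 47.7 and 44.3 CPM in YAP-TFE3. The TFE3 and YAP-TFE3 libraries were below EV by a log2 fold change of -0.23 in both cases, which did not pass (edgeR adjusted p = 0.706 and 0.523). In YAP5SA it measured 3.18, 4.22 and 4.75 CPM, and in TAZ4SA 5.95, 8.84 and 11.0 CPM. Both groups lay below every library of the 6 other groups. The log2 fold change from EV was -3.69 in YAP5SA (SE 0.25, adjusted p = 3.14e-11 by edgeR) and -2.59 in TAZ4SA (SE 0.23, adjusted p = 6.10e-09 by edgeR). TAZ-CAMTA1 libraries, at 31.0, 27.6 and 28.7 CPM, were in between, with a log2 fold change of -0.84 (adjusted p = 0.00609 by edgeR). The sub-confluent groups were also low, at 18.8, 16.2 and 35.4 CPM in EVsub and 17.5, 18.3 and 21.4 CPM in CAMTA1. EVsub replicate 3 stood apart from its group, and EVsub differed from EV by -1.15 (adjusted p = 0.000560 by edgeR), a call kept whichever library was left out.

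*Tfe3* and *Tfeb* went the other way in the cells with hyperactive YAP and TAZ. *Tfe3* measured 168, 161 and 159 CPM in YAP5SA, above every EV library, with a log2 fold change of 0.87 (SE 0.14, adjusted p = 7.41e-06 by edgeR). In TAZ4SA it measured 132, 172 and 96.6 CPM, a wide spread in which replicate 3 was only just above EV, and the log2 fold change of 0.58 passed (adjusted p = 0.00103 by edgeR) except with those 2 groups alone in the fit (edgeR adjusted p = 0.0582). *Tfeb* measured 6.50, 5.30 and 5.97 CPM in EV, 10.8, 8.10 and 9.19 CPM in YAP5SA, and 9.38, 14.4 and 8.40 CPM in TAZ4SA. Its log2 fold change was 0.66 in YAP5SA (adjusted p = 0.00524 by edgeR) and 0.84 in TAZ4SA (adjusted p = 0.000970 by edgeR). In the other 6 groups *Tfeb* stayed between 4.60 and 7.67 CPM.

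**Figure D3:**
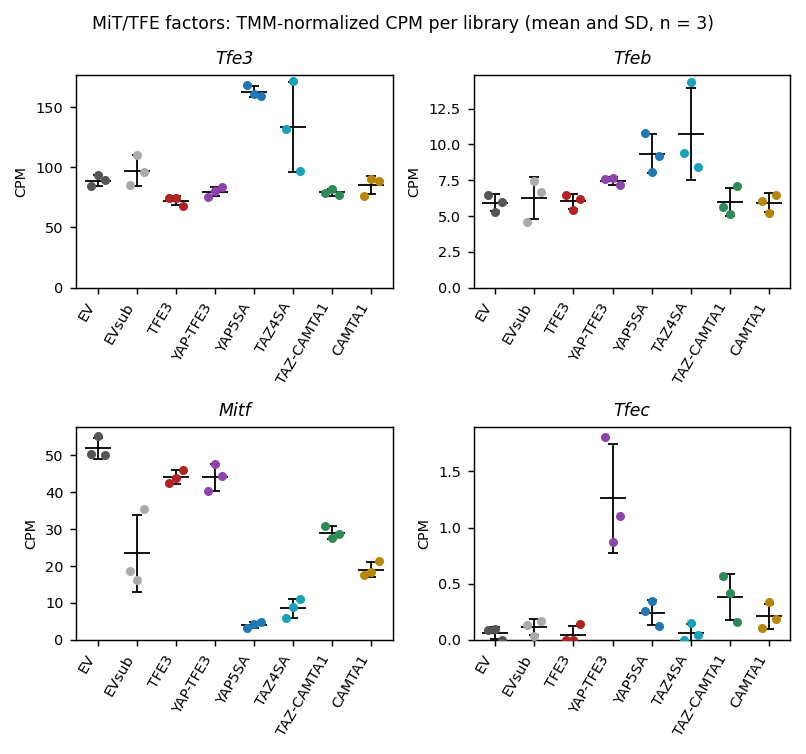
Level of each MiT/TFE factor gene in CPM (y axis, from 0, where the error bars of Tfec end) for the 3 libraries (points) of each of the 8 groups (x axis), with the mean and SD as a bar. Tfe3 has its highest mean in YAP5SA (159 to 168 CPM), where Mitf is lowest (3.18 to 4.75 CPM), although TAZ4SA replicate 2 reached 172 CPM of Tfe3. Tfec is highest in YAP-TFE3 (0.871 to 1.81 CPM).

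Per kilobase of exon, the composition of the factors and their sum were both read. *Mitf* made up 44.0% ± 0.817 of the summed RPKM of the 4 factors in EV, 44.5% ± 2.05 in TFE3 and 41.2% ± 1.71 in YAP-TFE3 (SD, n = 3 each). In YAP5SA it made up 3.29% ± 0.726, in TAZ4SA 8.33% ± 4.02 and in TAZ-CAMTA1 32.7% ± 1.61. *Tfe3* made up 50.5% ± 0.896 in EV, 88.2% ± 0.615 in YAP5SA and 81.0% ± 4.32 in TAZ4SA. The sum itself was 19.1 ± 0.773 RPKM in EV, 19.9 ± 0.585 RPKM in YAP5SA and 17.7 ± 4.49 RPKM in TAZ4SA. It was 15.99 ± 0.0743 RPKM in TFE3 and 17.3 ± 0.811 RPKM in YAP-TFE3, groups whose *Mitf* shares were near that of EV, and 14.4 ± 0.184 RPKM in TAZ-CAMTA1 (SD, n = 3 each). The libraries of these 3 groups were all below those of EV, which held 18.5 to 19.9 RPKM. EVsub had 15.4 ± 2.14 and CAMTA1 13.4 ± 1.06 RPKM. All these sums depend on TMM, whose scaling factors were 0.773 to 0.829 in YAP5SA and 1.04 to 1.06 in EV, and on the union of exons. Sums with total count scaling or the longest transcript were not read.

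**Figure D4:**
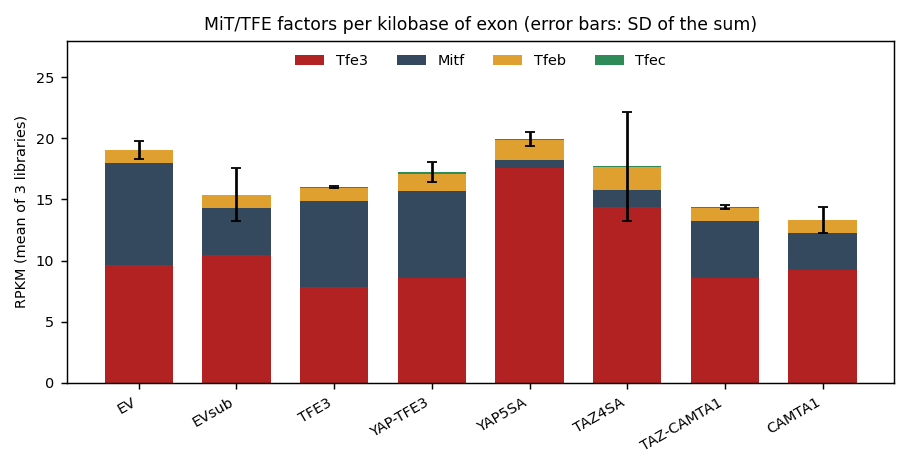
Summed RPKM of Tfe3, Mitf, Tfeb and Tfec (y axis, from 0), stacked as means of 3 libraries, for each of the 8 groups (x axis), with the SD of the sum as an error bar. With TMM and the union of exons, the sums in EV (19.1) and YAP5SA (19.9) are close, but the Mitf share is 44.0% in EV and 3.29% in YAP5SA.

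In YAP5SA cells, 8 of the 10 members differed from EV, 3 higher (*Tfe3*, *Tfeb*, *Rraga*) and 5 lower (*Mitf*, *Rragd*, *Fnip1*, *Fnip2*, *Rragc*). This was a comparison with changes across much of the transcriptome, with 36.3% of all tested genes higher and 34.9% lower. *Rragd* measured 0.411, 0.638 and 0.443 CPM, with 8 reads in the first library, against at least 5.06 CPM in EV, a log2 fold change of -3.70 (SE 0.30, adjusted p = 5.99e-10 by edgeR). *Fnip1* measured 45.0, 63.0 and 53.7 CPM (log2 fold change -1.36, adjusted p = 2.36e-08 by edgeR) and *Fnip2* 89.1, 89.8 and 77.9 CPM (-1.15, adjusted p = 5.83e-07 by edgeR), and for both genes every YAP5SA library was below every EV library. *Rraga* rose to 212, 209.6 and 193 CPM, above every EV library, with a log2 fold change of 0.62 (adjusted p = 4.25e-05 by edgeR). *Rragc* at 218 to 258 CPM had a small decrease of -0.33 (adjusted p = 0.0405 by edgeR) that was lost in 5 of 6 fits without 1 library (up to 0.141), all but the one without YAP5SA replicate 2. *Flcn* at 83.7 to 102 CPM overlapped EV.

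TAZ4SA cells had the same counts, 3 members higher and 5 lower, where 31.1% of all genes were higher and 26.4% lower. *Rragd* measured 1.44, 1.72 and 1.06 CPM (log2 fold change -2.26, adjusted p = 2.57e-07 by edgeR), below EV but above YAP5SA in every library. *Fnip2* measured 79.4, 84.4 and 51.5 CPM (-1.41, adjusted p = 9.99e-08 by edgeR) and *Fnip1* 77.7, 66.3 and 86.2 CPM (-0.85, adjusted p = 2.69e-05 by edgeR). *Rraga* at 206, 191 and 139 CPM and *Rragc* at 257, 262 and 176 CPM varied more, again with replicate 3 the lowest. Their log2 fold changes of 0.43 and -0.37 passed (adjusted p = 0.00276 and 0.0285 by edgeR) but not with only TAZ4SA and EV in the fit (edgeR adjusted p = 0.0954 and 0.0731). The call on *Rragc* was also lost without EV replicate 2, EV replicate 3 or TAZ4SA replicate 3 (up to 0.177).

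Scaling to the total count in place of TMM moved the median log2 fold change of all genes to -0.36 in YAP5SA against EV, from 0.01, and to -0.12 in TAZ4SA against EV, from 0.05. Of the called genes, 34.5% were then higher in YAP5SA in place of 51.0%, and 41.9% in TAZ4SA in place of 54.1%. Under that scaling the rise of *Tfeb* in YAP5SA (0.29, edgeR adjusted p = 0.158) and of *Rraga* in TAZ4SA (0.23, edgeR adjusted p = 0.0598) no longer passed, and *Flcn* became lower in YAP5SA (-0.49, edgeR adjusted p = 0.00919) and in TAZ4SA (-0.40, edgeR adjusted p = 0.0371). The calls on *Mitf*, *Rragd*, *Fnip1*, *Fnip2*, *Rragc* and *Tfe3* in both groups were kept.

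In TAZ-CAMTA1 cells, 6 of the 9 members other than *Tfec* were lower than in EV. Over all genes the shares were 12.5% higher and 8.98% lower. *Fnip2* measured 103, 102 and 86.5 CPM, all well below EV, with a log2 fold change of -0.97 (adjusted p = 5.64e-05 by edgeR). The calls on *Fnip2* and on *Mitf*, described above, were kept whichever library was left out. *Flcn* measured 73.7, 66.5 and 56.0 CPM (-0.57, adjusted p = 0.0199 by edgeR), *Rragc* 228, 236 and 186 CPM (-0.46, adjusted p = 0.0203 by edgeR) and *Fnip1* 103, 108 and 99.6 CPM (-0.42, adjusted p = 0.0351 by edgeR). These 3 genes had no overlap with EV. *Rragd*, at 5.38, 3.03 and 3.75 CPM, overlapped EV, whose second replicate was its lowest at 5.06 CPM (-0.70, adjusted p = 0.0289 by edgeR). Leaving out 1 library ended the call on *Flcn* in 4 of 6 fits (EV replicates 1 and 3, TAZ-CAMTA1 replicates 2 and 3, up to 0.112), on *Rragd* in the same 4 fits (up to 0.158), on *Rragc* without EV replicate 3 or TAZ-CAMTA1 replicate 3 (up to 0.125) and on *Fnip1* in each of the 6 (up to 0.116), all by edgeR. The call on *Fnip1* was also lost with scaling to the total count (0.0696), and that on *Rragd* with only those 2 groups in the fit (0.0528).

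Compared directly, YAP-TFE3 cells had higher *Rragd* and *Fnip2* than TAZ-CAMTA1 cells, 2 of the 9 members other than *Tfec*, and no member lower. In this comparison 6.32% of all genes were higher and 5.32% lower. *Rragd* differed by a log2 fold change of 1.35 (SE 0.22, adjusted p = 0.000275 by edgeR), with the YAP-TFE3 libraries above 8.4 CPM and the TAZ-CAMTA1 libraries at or below 5.38 CPM. *Fnip2* differed by 0.53 (adjusted p = 0.0229 by edgeR), a call lost without TAZ-CAMTA1 replicate 2 or 3 or YAP-TFE3 replicate 1 or 3 (up to 0.120 by edgeR). *Tfec*, with 88 reads against 27, was 3.17 times as high, with an exact 95% counting interval from 2.04 to 5.07. That interval holds counting error alone and not the spread between libraries. The edgeR adjusted p of *Tfec* was 0.0212 with no filter, and DESeq2 did not call it (adjusted p = 0.0526). With the filter its call was lost in 4 of 6 fits without 1 library (adjusted p up to 0.175 by edgeR). At an unadjusted p under 0.05, 5 members with *Tfec* were higher and 0 lower, and DESeq2 called 3 higher and 0 lower. *Mitf* at 0.60 had an adjusted p of 0.0671 and *Flcn* at 0.45 one of 0.0940 (edgeR), so these 2 were the other members past the unadjusted threshold. *Mitf* passed by DESeq2 (adjusted p = 0.0492), and both passed with only the 2 groups in the fit (edgeR adjusted p = 0.00276 and 0.0233).

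Between YAP-TFE3 and YAP5SA cells, 4 of the 9 members other than *Tfec* were higher in YAP-TFE3 (*Rragd*, *Mitf*, *Fnip1*, *Fnip2*) and 2 were lower (*Tfe3*, *Rraga*), against 36.4% of all genes higher and 34.5% lower. *Rragd* differed by a log2 fold change of 4.35 (SE 0.30, adjusted p = 6.10e-11 by edgeR) and *Mitf* by 3.45 (SE 0.25, adjusted p = 9.97e-11 by edgeR). *Tfe3* differed by -1.03 (adjusted p = 8.55e-07 by edgeR). These 6 calls were kept whichever library was left out. With scaling to the total count, which moved the median of all genes from 0.05 to 0.41 here, *Rraga* no longer passed (-0.09, edgeR adjusted p = 0.448) and *Rragc* and *Flcn* became higher (0.39 and 0.36, edgeR adjusted p = 0.00924 and 0.0491). The share of called genes that were higher was then 67.6% in place of 51.4%.

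Cell density alone was examined with the empty vector. EVsub cells had lower *Rragd*, *Fnip2*, *Mitf* and *Fnip1* than confluent EV cells, 4 members lower and none higher, where 12.5% of all genes were higher and 9.59% lower. No member was higher at an unadjusted p under 0.05, and DESeq2 called the same number, 4 lower and 0 higher. *Rragd* measured 1.78, 2.56 and 2.62 CPM in EVsub, each below the lowest EV library, with a log2 fold change of -1.50 (SE 0.24, adjusted p = 0.000125 by edgeR). *Fnip2* measured 90.3, 78.0 and 114 CPM (-1.01, adjusted p = 7.14e-05 by edgeR), likewise below EV throughout. *Fnip1* measured 120, 75.4 and 108 CPM, and its log2 fold change of -0.45 (adjusted p = 0.0233 by edgeR) was lost without EVsub replicate 2, EV replicate 2 or EV replicate 3 (up to 0.157), with total count scaling (0.0612) and with those 2 groups alone in the fit (0.102). These comparisons with EV share the EV libraries, so their values are not independent of each other.

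CAMTA1 cells, compared with EVsub at like density, had no member called by edgeR, where 1.29% of all genes were higher and 0.891% lower. At an unadjusted p under 0.05, 2 members were higher and 0 lower. DESeq2 called 1, *Rragd*, as higher (0.89, adjusted p = 0.0168). *Rragd* measured 3.87 to 4.98 CPM in the 3 CAMTA1 libraries, all above the EVsub libraries, with a log2 fold change of 0.88 by edgeR (SE 0.24, adjusted p = 0.0560). *Fnip1* at 136, 123 and 117 CPM was the other, at 0.31 (adjusted p = 0.240 by edgeR).

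**Figure D5:**
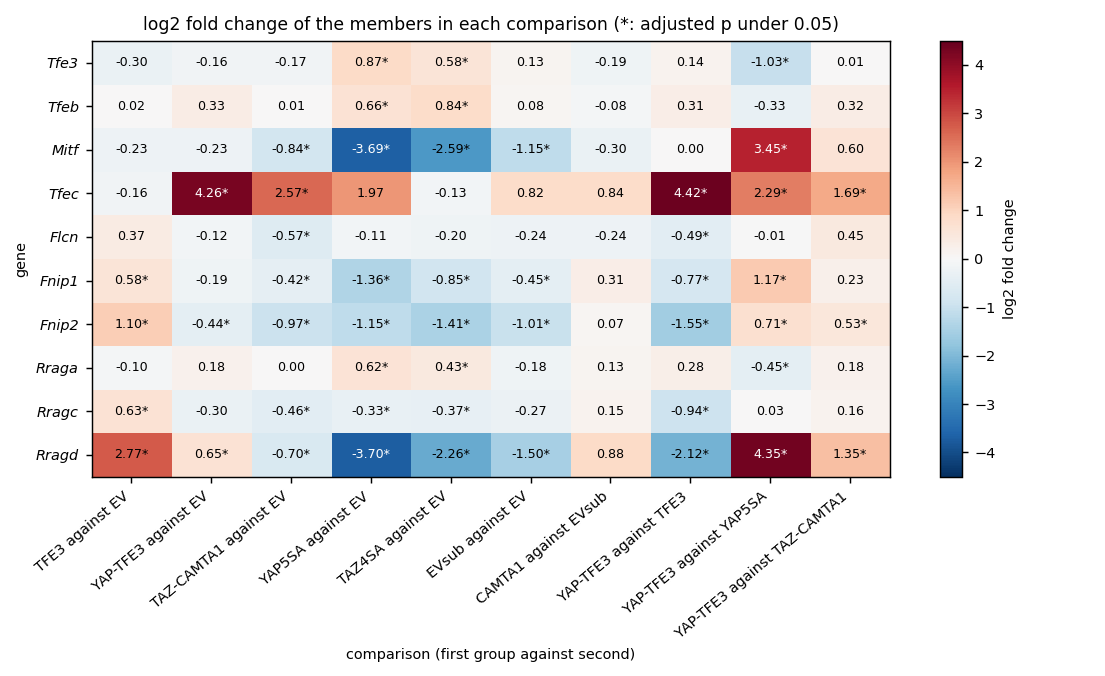
The log2 fold change of each of the 10 members (rows) in each of the 10 comparisons (columns, first group against second), colored from blue (lower in the first group) to red (higher), with an asterisk where the adjusted p was under 0.05. TFE3 cells have higher Rragd (2.77), Fnip2 (1.10), Rragc (0.63) and Fnip1 (0.58), while YAP5SA and TAZ4SA cells have lower Rragd (-3.70 and -2.26), Mitf (-3.69 and -2.59), Fnip1 and Fnip2.

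The order of groups by level was read for the 4 members with the widest range. From lowest to highest mean, *Rragd* ran YAP5SA, TAZ4SA, EVsub, TAZ-CAMTA1, CAMTA1, EV, YAP-TFE3 and TFE3, with a 90.4-fold ratio of the highest to the lowest group mean. TAZ-CAMTA1 and CAMTA1 overlapped in that order, whereas the libraries of the other neighbours did not. For *Fnip2*, ordered TAZ4SA, YAP5SA, EVsub, TAZ-CAMTA1, CAMTA1, YAP-TFE3, EV and TFE3, the ratio was 5.69, and the first 5 groups overlapped with their neighbours. *Mitf*, with a ratio of 12.8, ran YAP5SA, TAZ4SA, CAMTA1, EVsub, TAZ-CAMTA1, TFE3, YAP-TFE3 and EV, and EVsub overlapped both of its neighbours, as TFE3 and YAP-TFE3 overlapped each other. *Tfec*, with a ratio of 27.1 that rests on few reads, ran TFE3, EV, TAZ4SA, EVsub, CAMTA1, YAP5SA, TAZ-CAMTA1 and YAP-TFE3, and all neighbours but the last pair overlapped. The ratio was 3.84 for *Fnip1*, 2.26 for *Tfe3*, 2.14 for *Rragc*, 1.92 for *Flcn*, 1.81 for *Tfeb* and 1.75 for *Rraga*.

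The genes whose log2 CPM was most like a member over the 24 libraries, among 11363 genes whose mean count was 50 or more, are given as a description, since libraries of a group share their treatment. For *Rragd* they were *March8* (Pearson r = 0.957), *Pikfyve* (0.943) and *Dip2c* (0.942), and for *Fnip1* *Pikfyve* (0.981), *Impact* (0.975) and *Ankrd12* (0.961). *Pikfyve* encodes a lipid kinase of endosomes and lysosomes. For *Fnip2* they were *Wdr81* (0.959), *Zfyve26* (0.958) and *Gla* (0.956), the last encoding lysosomal alpha-galactosidase A. For *Rragc* they were *Mfsd1* (0.944), *Smcr8* (0.940) and *Tsc1* (0.932), and for *Flcn* *Arl8b* (0.913), *Atp6v1g1* (0.885) and *Slc6a8* (0.872). *Smcr8* encodes a protein with a folliculin-like fold, *Arl8b* a GTPase of lysosome transport, and *Atp6v1g1* a subunit of the vacuolar proton pump. For *Mitf* they were *Rin2* (0.987), *Snx9* (0.978) and *Slc37a3* (0.973). The genes most like *Tfe3* (*Rpl41*, *Nrde2* and *Ddx49*, 0.972 to 0.976), *Rraga* (*Dnajb6*, *Gm2541* and *Dnaja2*, 0.948 to 0.958), *Tfeb* (*Dennd5a*, *Tmem38a* and *Prkd2*, 0.880 to 0.897) and *Tfec* (*Pgrmc1*, *Chst12* and *Rsu1*, 0.837 to 0.872) followed. Among the members themselves, *Tfe3* and *Mitf* had r = -0.87.

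The rest of the nutrient-sensing machinery was examined in TFE3 and YAP-TFE3 cells through lists drawn from general knowledge, with earlier results of these data known. Of 24 tested genes of the Rag machinery (Ragulator, GATOR, KICSTOR and amino acid sensors), TFE3 cells had none higher or lower than EV by edgeR. Over all genes 2.36% were higher and 1.02% lower. Of the list, 7 had an unadjusted p under 0.05, and DESeq2 called 1 higher and 1 lower. The list's median log2 fold change was -0.02, as was that of all genes. In YAP-TFE3 cells none was higher (beside 10.6% of all genes) and 2 (8.33%, beside 4.74%) were lower. These were *Sesn3*, a sestrin (-0.84, adjusted p = 0.00544 by edgeR), and *Itfg2*, a KICSTOR subunit (-0.40, adjusted p = 0.0168 by edgeR). The list's median was -0.06.

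Of 16 genes of mTORC1 and its inputs, 1 (6.25%, beside 2.36% of all genes) was higher in TFE3 cells. This was *Tsc1*, a subunit of the complex that restrains Rheb (0.63, adjusted p = 0.00601 by edgeR). None was lower, beside 1.02% of all genes (2 of the list at an unadjusted p under 0.05 in either direction, and 0 lower by DESeq2). The list's median was 0.03. In YAP-TFE3 cells 2 (12.5%, beside 10.6% of all genes) were higher. These were *Deptor*, an mTOR-binding inhibitor (0.87, adjusted p = 0.0133 by edgeR), and *Prkag2*, an AMPK subunit (0.40, adjusted p = 0.0163 by edgeR). None was lower, beside 4.74% of all genes (3 of the list at an unadjusted p under 0.05 in either direction, and 1 lower by DESeq2). The list's median was 0.10. Of 12 genes of calcineurin, 14-3-3 proteins and *Mcoln1*, TFE3 cells had 1 higher (8.33%, beside 2.36% of all genes). This was *Mcoln1*, the lysosomal calcium channel (0.99, adjusted p = 8.47e-05 by edgeR). No other gene of that list had an unadjusted p under 0.05, none was lower by edgeR or DESeq2, and the median was -0.09. YAP-TFE3 cells had 1 higher (8.33%, beside 10.6% of all genes), *Ywhah* (0.43, adjusted p = 0.0157 by edgeR), and 2 lower (16.7%, beside 4.74%). The lower genes were *Ppp3ca*, a catalytic subunit of calcineurin (-0.44, adjusted p = 0.00556 by edgeR), and *Ywhaz* (-0.32, adjusted p = 0.0179 by edgeR). The list's median was -0.11.

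Genes known as MiT/TFE targets were also read. That list too was chosen with earlier results of these data known, so its shares are a description and not an independent test. Of 22 tested, 8 (36.4%, beside 2.36% of all genes) were higher and 0 lower in TFE3 cells, with a list median of 0.56 (17 had an unadjusted p under 0.05, and DESeq2 called 10 higher and 0 lower). *Gpnmb*, a lysosomal and melanosomal glycoprotein gene, measured 71.2, 51.9 and 67.7 CPM in EV and 524, 669 and 563 CPM in TFE3 (log2 fold change 3.20, adjusted p = 1.99e-07 by edgeR). *Lamp1*, a lysosomal membrane protein gene, was higher by 0.88 (adjusted p = 0.00321 by edgeR) and *Atp6v1c1*, a proton pump subunit gene, by 0.87 (adjusted p = 0.000757 by edgeR). In YAP-TFE3 cells 2 of the 22 (9.09%, beside 10.6% of all genes) were higher and 3 (13.6%, beside 4.74%) lower, with a median of 0.10. *Gpnmb* measured 9.98, 14.7 and 27.0 CPM there, below every EV library (-1.88, adjusted p = 1.73e-05 by edgeR). The other lower genes were *Amdhd2* (-0.86, adjusted p = 0.00182) and *Gla* (-0.83, adjusted p = 0.00247), by edgeR. The 2 higher genes were *Ppargc1a* (0.81, adjusted p = 0.0436) and *Uvrag* (0.76, adjusted p = 0.000369), by edgeR. Every TFE3 library of *Gpnmb* was far above every YAP-TFE3 library.

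Markers of other cell types were read beside these results, first those of melanocytes, in which MITF is known to be high. The 6 markers summed to 7.30 to 8.74 CPM in EV, 24.4 to 28.3 CPM in TFE3 and 4.26 to 5.56 CPM in YAP-TFE3 cells. *Pmel* (2.53, adjusted p = 9.21e-06 by edgeR) and *Mlana* (1.59, adjusted p = 0.0227 by edgeR), the 2 markers tested, were higher in TFE3 cells, beside 2.36% of all genes. DESeq2 called only 1 of these 2 higher. *Tyr* was at 0 in all of these libraries and *Dct* and *Sox10* were at or near 0. *Tyrp1*, too low to be tested, had 7, 6 and 9 reads in TFE3, 1, 1 and 0 in EV and 1, 2 and 0 in YAP-TFE3. In YAP5SA and TAZ4SA cells, where *Mitf* was lowest, the sum was 1.32 to 2.57 CPM and *Mlana* was lower than in EV (-3.36 and -3.81, adjusted p = 3.09e-06 and 2.67e-06 by edgeR). *Pmel* went the other way in YAP5SA cells, where it was higher, at 1.08 to 1.54 CPM against 0.619 to 1.00 CPM in EV. In TAZ4SA cells *Pmel* did not pass.

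The 7 macrophage or osteoclast markers summed to 34.7 to 51.6 CPM in EV, 53.4 to 56.9 CPM in TFE3 and 47.8 to 63.5 CPM in YAP-TFE3. Most of this was *Ctsk*, at a mean of 36.9, 49.3 and 50.6 CPM, while *Adgre1* was at 0 and *Ptprc*, *Itgam* and *Acp5* were near 0, and edgeR called none of the 4 tested markers in TFE3 or YAP-TFE3 cells against EV. At an unadjusted p under 0.05 there were 2 in each comparison, and DESeq2 called 1 higher in YAP-TFE3 cells and 0 in TFE3 cells. Over all genes 2.36% were higher in TFE3 cells and 10.6% in YAP-TFE3 cells. In YAP5SA the sum was 87.4 to 136 CPM, and *Cd68* and *Csf1r* were higher than in EV and *Ctsk* was lower. Over all genes 36.3% were higher and 34.9% lower in YAP5SA cells. *Cd68* measured 77.8, 76.4 and 46.5 CPM there, against 2.48 to 3.54 CPM in EV, and *Csf1r* 53.4, 30.4 and 36.1 CPM, against 0.477 to 0.796 CPM. *Ctsk* fell to 3.53 to 3.86 CPM from 30.5 to 48.5 CPM. *Itgam* had 15 to 28 reads a YAP5SA library, against at most 1 in EV. It is left out of these calls, since it passed the filter only through YAP5SA and TAZ4SA cells. Libraries of the other groups had at most 4 *Itgam* reads each. In TAZ4SA cells *Cd68* (56.0, 53.8 and 12.1 CPM) and *Csf1r* (3.43 to 8.83 CPM) were likewise higher and *Ctsk* (4.22 to 6.38 CPM) lower. Over all genes 31.1% were higher and 26.4% lower in TAZ4SA cells. *Ptprc* and *Adgre1*, defining markers of leukocytes and macrophages, were at most 0.176 CPM and at 0 in both groups.

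Of the 3 endothelial markers tested, 1 was higher in TFE3 cells (beside 2.36% of all genes) and 2 in YAP-TFE3 cells (beside 10.6%). The 4 summed to at most 4.76 CPM in EV and these groups. *Kdr* measured 0.626 to 1.01 CPM in TFE3 and 0.636 to 1.10 CPM in YAP-TFE3, against at most 0.177 CPM in EV (adjusted p = 0.00179 and 0.000210 by edgeR). *Cdh5* measured 0.212 to 0.301 CPM in YAP-TFE3, against at most 0.0442 CPM in EV (adjusted p = 0.00628 by edgeR), and was at 0 in TFE3. *Tek* did not pass in either. In YAP5SA and TAZ4SA the sums were 7.46 to 12.1 CPM, with *Kdr* and *Cdh5* higher and *Tek* lower than in EV. Over all genes 36.3% were higher and 34.9% lower in YAP5SA, and 31.1% and 26.4% in TAZ4SA. Of the 8 fibroblast markers, 3 (37.5%, beside 10.6% of all genes) were higher in YAP-TFE3 cells, *Thy1* (1.49), *Col1a1* (0.97) and *Col1a2* (0.82). *Pdgfrb* alone was lower (-0.37), 12.5% beside 4.74% of all genes. The 1 epithelial marker tested, *Cdh1*, was higher in YAP-TFE3 cells (1.62, adjusted p = 0.0147 by edgeR), beside 10.6% of all genes. The part of these markers in the results on *Mitf*, *Tfec* and the other members was not tested.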

How the data were processed

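RNA-Seq of polyadenylated RNA from the 24 NIH 3T3 libraries was analysed, 3 for each of 8 groups taken from the sample titles. The deposited values are counts, as whole reads per Ensembl gene with no normalization applied. According to the methods, the authors ran stranded paired-end reads through bcbio-nextgen and Hisat2 on mm10. The submitters' processing notes name mm10 and bcl2fastq. The methods also describe gene-level counts from Salmon and tximport, used for the authors' own tests with DESeq2. Which of these routes gave the deposited whole-number counts, and with what strand setting, is not given in the sources used here. Symbols, coordinates and exon lengths came from GENCODE M21 (37693 of 39017 identifiers matched).

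Counts were tested with edgeR 4.0.16 (R 4.3.3; glmQLFit and glmQLFTest) after TMM normalization, in a single fit of all libraries by group. It covered the 14361 genes whose mean count was 5 or more, at a Benjamini-Hochberg adjusted p of 0.05. Standard errors and 95% intervals came from that fit. The scripts were tested on simulated data. CPM used TMM library sizes, RPKM the union of annotated exons, and log2 CPM a prior count of 2. The alternatives were DESeq2 1.42.0, its size factors, total count scaling, a replicate block, no filter (24737 genes), a minimum of 10 counts per library (11461 genes), only the 2 groups compared, and each library left out. The comparisons were TFE3, YAP-TFE3, YAP5SA, TAZ4SA, TAZ-CAMTA1 and EVsub each with EV, CAMTA1 with EVsub, and YAP-TFE3 with each of TFE3, YAP5SA and TAZ-CAMTA1.

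All members were named. From each of the 4 pathway lists the called genes with the largest changes were named, up to 3 each in TFE3 and in YAP-TFE3 against EV, and for each member the 3 genes with the highest Pearson correlation. For the MiT/TFE targets the 2 genes higher in YAP-TFE3 cells were named as well. The members and lists were chosen with earlier results of these data known. Promoters came from RefSeq on GRCm38.p6. For YAP-TFE3 replicate 3 the labels conflict on its number, and the title was followed. Summaries and figures were made in Python 3.11.15 with numpy 2.4.6, pandas 2.3.3 and matplotlib 3.10.9.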

Additional observations from a re-analysis of the deposited data

How the results depend on the processing

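The counts given here include Tfec. Of the 50 differences called among the members over the 10 comparisons, 35 were called whichever library of the 2 groups was left out. These 35 include Tfec in YAP-TFE3 against each of EV, TFE3 and YAP5SA. Tfec passed the filter only through YAP-TFE3 cells, and the fits without 1 library used that same filter. Its kept calls are therefore not support for a difference. In YAP-TFE3 against EV, Fnip2 was lost in each of the 6 fits and Rragd in 4 of 6, so no member other than Tfec kept its call throughout. Leaving out 1 library in turn gave 2 to 4 members called in TFE3 against EV, 1 to 2 in YAP-TFE3 against EV, 1 to 3 in YAP-TFE3 against TAZ-CAMTA1, 2 to 6 in TAZ-CAMTA1 against EV, 5 in every case in YAP-TFE3 against TFE3, 7 in YAP-TFE3 against YAP5SA, 7 to 8 in YAP5SA against EV, 7 to 9 in TAZ4SA against EV, 0 in CAMTA1 against EVsub and 3 to 4 in EVsub against EV. With at least 10 counts required in every library, which left out Tfec and Rragd, 1 member was called in YAP-TFE3 against EV in place of 3, and 1 in YAP-TFE3 against TAZ-CAMTA1 in place of 3. In the latter, 5 were called with no filter and 5 with only the 2 groups in the fit. In TAZ4SA against EV 5 were called with only the 2 groups in the fit in place of 8. In CAMTA1 against EVsub 1 was called by DESeq2, 1 with total count scaling and 1 with no filter, in place of 0. The difference in Flcn between YAP-TFE3 and YAP5SA was -0.01 (log2) and not called, and became 0.36 with total count scaling (edgeR adjusted p = 0.0491). Apart from the changed filter on counts, which alters the members tested, the cause was not tested.

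With the replicate number as a block, 97 of 100 member differences kept their side of the threshold, and 1 member was called in YAP-TFE3 against EV in place of 3, since Rragd and Fnip2 each had an adjusted p of 0.0507 (edgeR). Mitf became called in YAP-TFE3 against TAZ-CAMTA1 (0.0430). Libraries with the same number did not deviate together in every pair of any comparison (correlations from -0.212 to 0.410), so the numbers were not taken as a pairing.

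Each group had 3 libraries, and Tfec rested on at most 36 reads a library. Log2 CPM in place of CPM and the longest transcript in place of the union of exons give other levels. Per length the order in EV was kept except that Flcn (27.2) and Fnip2 (26.1) changed places with the longest transcript, as did Tfeb (2.53) and Rragd (1.31). Spearman correlations kept Rin2 as the gene most like Mitf (rank 1) but moved the nearest gene of Tfe3, Rpl41, to rank 56, that of Fnip2, Wdr81, to rank 297, and Snx9, second for Mitf, to rank 295.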
